A study of Oryctolagus cuniculus with 27 samples.

Results

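S100A8, S100A9, S100A12, CXCR1, CXCR2 and CSF3R are 6 genes best known from neutrophils, and all 6 are listed among the 31346 genes of the full count tables of aortic valve, ascending aorta and myocardium. They were taken by name. Bulk RNA was sequenced from wild-type male New Zealand rabbits fed either a diet with added cholesterol (1%) and ergocalciferol, a form of vitamin D (3500 IU per kg per day), or plain chow, a model in which the aortic valve calcifies. The valve groups were 2, 4 and 7 weeks of diet and chow controls (n = 4 each). The other groups were ascending aorta on diet (n = 2) and on chow (n = 3), and left ventricular myocardium on diet (n = 3) and on chow (n = 3). For aorta and myocardium the labels give no duration. The titles of the control valves name 7 weeks for 3 and 2 weeks for 1, control replicate 4, whereas the design text pools 2 and 4 weeks, and which of these holds is not known here. Each valve library is 1 cusp, freed of most fat and rinsed of blood. By library name, all 3 diet myocardium libraries share an animal with a 7-week valve, 2 chow myocardium libraries share one with a control valve, and 1 diet aorta shares one with a 2-week valve.

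S100A8 and S100A9 are small calcium-binding proteins that pair to form calprotectin, an abundant cytosolic protein of neutrophils that is also made by monocytes and, in inflamed skin and mucosa, by epithelium. Released calprotectin and the related S100A12 act on TLR4 and on the receptor AGER. CXCR1 and CXCR2 are the receptors through which CXCL8 and related chemokines draw neutrophils into tissue, and CSF3R is the receptor for G-CSF, which drives neutrophil production. These roles are best known from human and mouse cells. No sequence of these genes is shown, since none was in the sources used here.

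Library totals were 8.46M to 20.0M counts in valves, 11.5M to 16.1M in aortas and 13.95M to 17.3M in myocardium. The 6 genes were rare. In valves a library held between 3 and 124 counts of S100A8, between 2 and 72 of S100A9, between 0 and 28 of S100A12, between 8 and 131.5 of CXCR1, between 2 and 40.5 of CXCR2 and between 0 and 3 of CSF3R. Levels are given as CPM, the counts of a gene scaled to the library's total (1 count is 0.05 to 0.118 CPM in valves). Gene lengths were not used here, so the levels of different genes are not set against each other.

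After 7 weeks of diet S100A8, S100A9, CXCR1 and CXCR2 rose in the valve, by between 4.32-fold and 10.8-fold in the fit. All 4 diet valves lay above all 4 control valves in each gene. How many of all genes separated in this way was not counted, while 4129 of 15973 had an unadjusted p under 0.05 by edgeR. S100A12 and CSF3R had too few counts to be tested in valves. No member passed the test in valves at 2 or at 4 weeks. In myocardium only CXCR1 and CXCR2 had enough counts to be tested, and neither passed. In aorta no member had enough counts to be tested. In bulk tissue more cells that carry these transcripts and more transcripts per cell cannot be told apart.

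**Figure D1:**
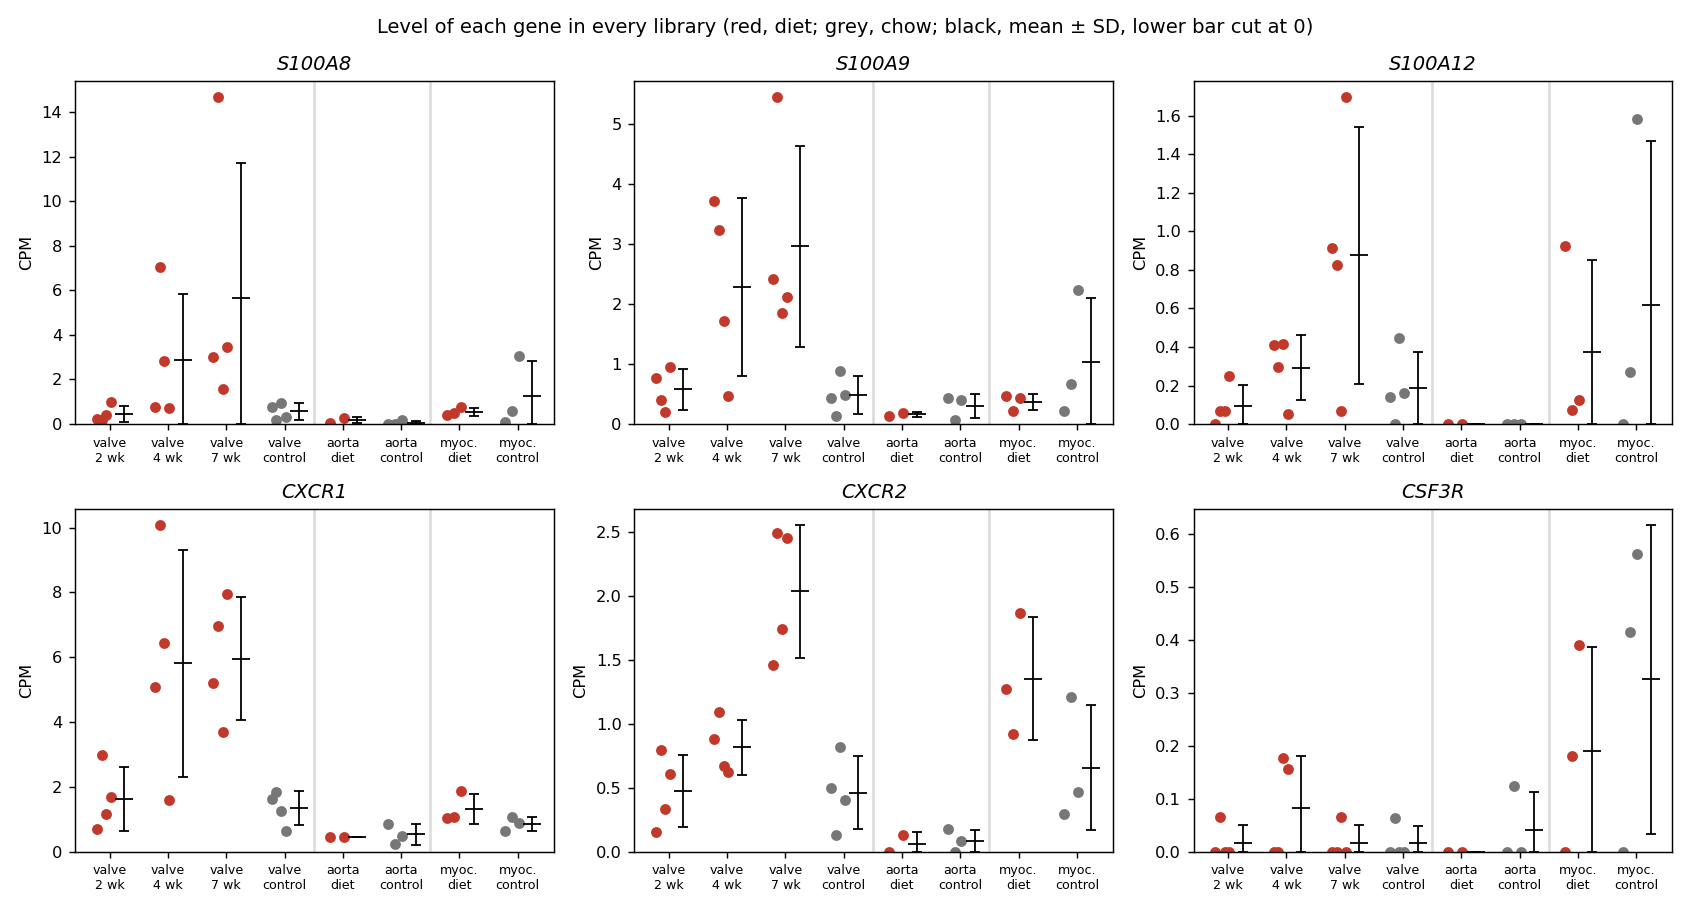
CPM of the 6 genes (y axes, linear, from 0) in each of the 27 libraries, by group (x axis). Dots are single libraries (red, diet; grey, chow), the black marks give the mean ± SD of the group, and S100A8 reaches 14.7 CPM in 1 of the 7-week valves, against at most 0.963 CPM in control valves.

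S100A8, the lighter subunit of calprotectin, stood at 3.00, 14.7, 1.59 and 3.45 CPM in the 7-week valves (replicates 1 to 4), against 0.783, 0.192, 0.963 and 0.325 CPM in the control valves. Every 7-week valve was above every control, and replicate 2 stood well above the other 3. The means were 5.68 ± 6.04 CPM at 7 weeks and 0.566 ± 0.366 CPM in controls (SD, n = 4 each). The fitted log2 change was 3.43 ± 0.93 (here and below ± SE), with an adjusted p of 0.0363 by edgeR's quasi-likelihood test with Benjamini-Hochberg adjustment over 15973 genes. In that comparison 7.79% of the genes tested passed the adjusted threshold of 0.05, and 5.20% passed it as higher at 7 weeks.

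S100A9, the other subunit, stood at 2.41, 5.44, 1.86 and 2.12 CPM in the 7-week valves, against 0.427, 0.128, 0.889 and 0.487 CPM in the control valves. The groups did not overlap, and replicate 2 was again the highest of the 7-week valves. The means were 2.96 ± 1.67 CPM at 7 weeks and 0.483 ± 0.313 CPM in controls, and the log2 change was 2.63 ± 0.72 (adjusted p of 0.0378, edgeR). The transcript counts of the subunits were not in a fixed proportion. S100A9 had between 0.371 and 1.17 counts for each count of S100A8 in the 7-week valves, between 0.458 and 4.8 in the 4-week valves, and between 0.546 and 1.5 in the control valves. In controls these ratios rest on 2 to 12 counts of S100A9 and 3 to 13 of S100A8 per library, so counting error is large there.

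CXCR1, a receptor for CXCL8, stood at 5.20, 6.97, 3.70 and 7.97 CPM in the 7-week valves, against 1.64, 1.86, 1.26 and 0.650 CPM in the control valves. The groups were clear of each other, and the 7-week values spread less than those of S100A8. The means were 5.96 ± 1.89 CPM at 7 weeks and 1.35 ± 0.528 CPM in controls, with a log2 change of 2.17 ± 0.51 (adjusted p of 0.0201, edgeR).

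CXCR2, which binds CXCL8 and the other neutrophil-drawing CXC chemokines, stood at 1.46, 2.49, 1.74 and 2.45 CPM in the 7-week valves, against 0.499, 0.128, 0.815 and 0.406 CPM in the control valves. Again no control reached the lowest 7-week valve. The means were 2.03 ± 0.518 CPM at 7 weeks and 0.462 ± 0.283 CPM in controls, with a log2 change of 2.11 ± 0.52 (adjusted p of 0.0254, edgeR).

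By edgeR these 4 calls were close to the threshold, and leaving out single libraries ended them. DESeq2 also called all 4, with adjusted p between 0.000692 and 0.00372, but was not run with a library left out. Left out one at a time, 7-week replicate 4 or control replicate 4 left 0 of the 4 called, 7-week replicate 2 and control replicates 1, 2 and 3 left 1 each, and 7-week replicates 1 and 3 left all 4. Over these 8 fits the log2 change kept its sign in every gene and ran from 2.12 to 3.85 for S100A8, from 2.01 to 3.15 for S100A9, from 1.96 to 2.37 for CXCR1 and from 1.77 to 2.57 for CXCR2. The highest adjusted p over them was 0.135. How many of all genes passed in each of these 8 fits is not given here, so the losses are not set against those of other genes. Without 7-week replicate 2, the library with the most S100A8, S100A8 stood at 2.12 with an adjusted p of 0.135.

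The other calgranulin, S100A12, had 14, 7, 1 and 28 counts in the 7-week valves, against 2, 0, 6 and 2 counts in the control valves. That is 0.913, 0.828, 0.0662 and 1.70 CPM at 7 weeks, and 0.142, 0, 0.444 and 0.163 CPM in controls. In 3 of the 4 it was above every control, and in replicate 3 it was not. With the filter on low counts taken away its log2 change was 2.16 ± 0.93 (adjusted p of 0.208, edgeR). At 4 weeks it had 8, 3, 7 and 1 counts, and at 2 weeks 7 in all 4 valves together.

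CSF3R had 0, 0, 1 and 0 counts in the 7-week valves, against 0, 1, 0 and 0 counts in the control valves. Summed, 7-week and control valves had 1 count each, 2-week valves also 1 and 4-week valves 6. A count of 0 in a single valve allows up to 3 counts, which is 0.15 to 0.355 CPM in these libraries. A change in CSF3R that stays near this level could not be seen at this depth. With the filter on low counts taken away its log2 change over controls was -0.02 ± 1.08 at 7 weeks and 1.79 ± 1.26 at 4 weeks (unadjusted p of 0.986 and 0.173, edgeR).

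The 4-week and 2-week valves are set against the same 4 control valves. At 4 weeks S100A8 stood at 0.772, 7.07, 2.85 and 0.728 CPM. S100A9 stood at 3.70, 3.24, 1.72 and 0.468 CPM. CXCR1 stood at 5.09, 10.1, 6.45 and 1.61 CPM. Replicate 4 was the lowest in each of the 3 and lay within the range of the controls. The log2 changes against controls were 2.07 ± 0.91 for S100A8 (adjusted p of 0.334), 2.05 ± 0.71 for S100A9 (adjusted p of 0.178) and 1.92 ± 0.51 for CXCR1 (adjusted p of 0.0653), and none passed edgeR's test, against 2.00% of all genes. Their unadjusted p-values were 0.0374, 0.0112 and 0.00171. By DESeq2 CXCR1 passed, and without 4-week replicate 4 its change was 2.22 with an adjusted p of 0.00937. With the mean of the macrophage genes as a term in the fit, added after seeing the data, CXCR1 stood at 0.06 and S100A8 at 0.51, and S100A9 stood at 1.67 (adjusted p of 1.0 each, edgeR).

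CXCR2 stood at 0.878, 1.09, 0.672 and 0.624 CPM at 4 weeks, with a log2 change against controls of 0.61 ± 0.53 (adjusted p of 0.717, edgeR). Of these valves 2 were above the highest control. At 7 weeks it was 2.83-fold higher than at 4 weeks in the fit (SE 0.49 on the log2 scale), with the lowest unadjusted p of the 4 members in that comparison at 0.00814, but with an adjusted p of 0.315. No member passed between 7 and 4 weeks, where 0.100% of all genes did, and S100A8 stood at 1.36 ± 0.83, S100A9 at 0.59 ± 0.64 and CXCR1 at 0.25 ± 0.48. DESeq2 called 0 members there.

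At 2 weeks the diet valves overlapped the controls in all 6 genes. S100A8 averaged 0.456 ± 0.372 CPM at 2 weeks and 0.566 ± 0.366 CPM in controls, and S100A9 averaged 0.579 ± 0.344 CPM at 2 weeks and 0.483 ± 0.313 CPM in controls. CXCR1 averaged 1.63 ± 0.989 CPM at 2 weeks and 1.35 ± 0.528 CPM in controls, and CXCR2 averaged 0.474 ± 0.284 CPM at 2 weeks and 0.462 ± 0.283 CPM in controls. The log2 changes ran from -0.29 ± 0.97 in S100A8 to 0.24 ± 0.51 in CXCR1, 0 of 4 passed edgeR's test, 0 had an unadjusted p under 0.05, and 0 were called by DESeq2, while 0.0250% of all genes passed.

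Set against 2 weeks, the 7-week valves were higher in the same 4 genes. The log2 differences were 3.72 ± 0.94 for S100A8 (adjusted p of 0.0110), 2.40 ± 0.70 for S100A9 (0.0216), 1.93 ± 0.50 for CXCR1 (0.0127) and 2.13 ± 0.51 for CXCR2 (0.00898, all adjusted p by edgeR). The groups did not overlap in any of them, and how many of all genes separated so was not counted. This comparison moved 26.7% of all genes and 14.5% as higher, so a call in it was common. Genes of other cells rose in it too, 9 of 13 heart muscle genes (median 3.34), 12 of 14 macrophage genes (median 2.50) and 7 of 8 red-cell genes (median 2.65), and their part in the members' differences was not tested. With the mean of the heart muscle genes as a covariate 0 members passed, with S100A8 at 2.44 (adjusted p of 0.556), S100A9 at 0.79 (0.804), CXCR1 at 1.55 (0.388) and CXCR2 at 0.53 (0.780, edgeR). With the mean of the macrophage genes 0 passed either, with S100A8 at 2.57 (adjusted p of 0.343), S100A9 at 2.09 (0.380), CXCR1 at 0.34 (0.817) and CXCR2 at 1.95 (0.253, edgeR). For both fits the share of all genes that passed is not given here. DESeq2, without covariates and with all libraries, called the same 4 genes, with adjusted p between 0.000136 and 0.0033. By edgeR S100A9 no longer passed without 7-week replicate 2 or 2-week replicate 2 or 3. S100A12 passed with the filter taken away (3.01 ± 0.97, adjusted p of 0.0436). Between 4 and 2 weeks no member passed and 4.36% of all genes did, with CXCR1 at 1.68 ± 0.50 (adjusted p of 0.0677), S100A8 at 2.36 ± 0.91 (0.159) and S100A9 at 1.81 ± 0.69 (0.151). CXCR1 passed there by DESeq2, and without 4-week replicate 4 (1.98, adjusted p of 0.0130) or without 2-week replicate 2 (2.05, adjusted p of 0.0445).

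**Figure D2:**
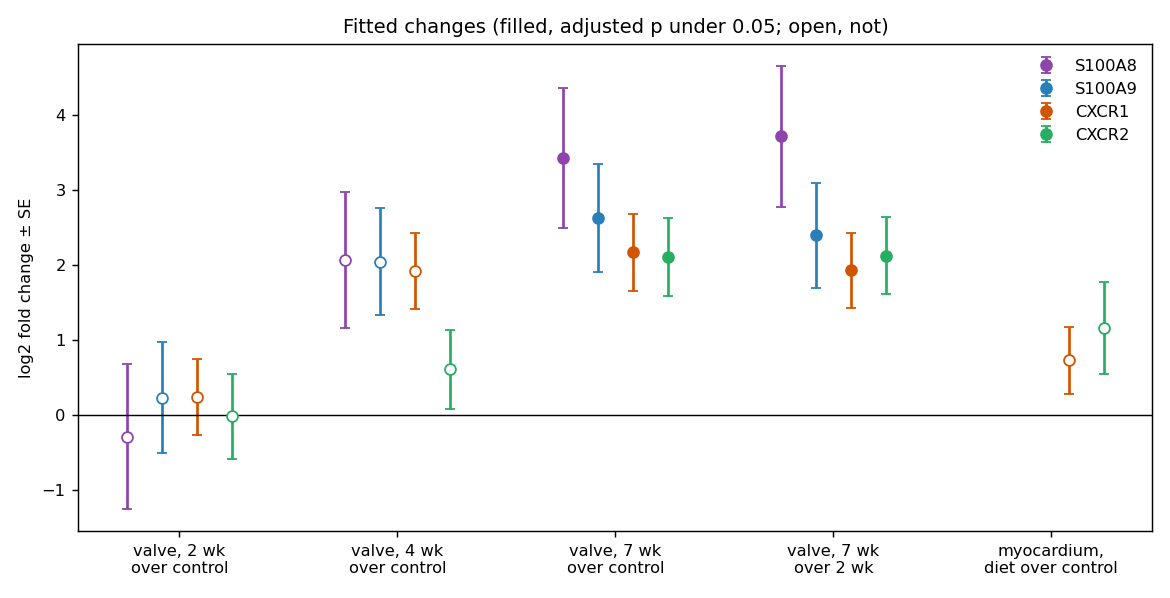
Fitted log2 fold change (y axis) with its SE for the 4 members that passed the filter on low counts in valves, in 5 comparisons (x axis). Filled points passed an adjusted p of 0.05: all 4 genes do so in both 7-week valve comparisons, with S100A8 at 3.43 over controls, and none at 2 or 4 weeks or in myocardium, where only CXCR1 and CXCR2 had enough counts.

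CXCR1 and CXCR2 are neighbouring genes with similar sequences, with no gene listed between them on chromosome 3 of the RefSeq assembly mOryCun1.1, and reads that match both were split between them. In 9 of 16 valve libraries CXCR1 had a count that was not whole, and in all 9 the sum of both genes was whole to within 0.005, as in 7-week replicate 4 with 131.5 and 40.5 counts and a sum of 172. The sum is free of that split. It stood at 6.65, 9.46, 5.43 and 10.4 CPM in the 7-week valves, at 5.97, 11.2, 7.12 and 2.24 CPM in the 4-week valves and at 2.14, 1.98, 2.07 and 1.06 CPM in the control valves. Both the 7-week and the 4-week valves were all above all controls. At 4 weeks the gap was within counting error, with 43 counts in replicate 4 against 30 counts in control replicate 1. How many of all genes separated so was not counted. Fitted as 1 row, an alternative chosen after seeing the data, the sum rose at 7 weeks by 2.16 on the log2 scale (adjusted p of 0.0142, edgeR) and stood at 1.68 at 4 weeks (adjusted p of 0.0790).

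Of the pair, CXCR1 took 74.1% ± 4.43 of the counts in the 7-week valves, 84.5% ± 8.65 in the 4-week valves and 73.1% ± 15.5 in the control valves (SD, n = 4 each). Over 3 comparisons of these groups, chosen after seeing the values, the smallest exact permutation p was 0.114 (two-sided, 7 against 4 weeks; 0.343 after adjustment), so no difference between the shares passed. In myocardium the share was 49.5% ± 4.31 on diet and 60.2% ± 11.5 on chow (n = 3 each).

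**Figure D3:**
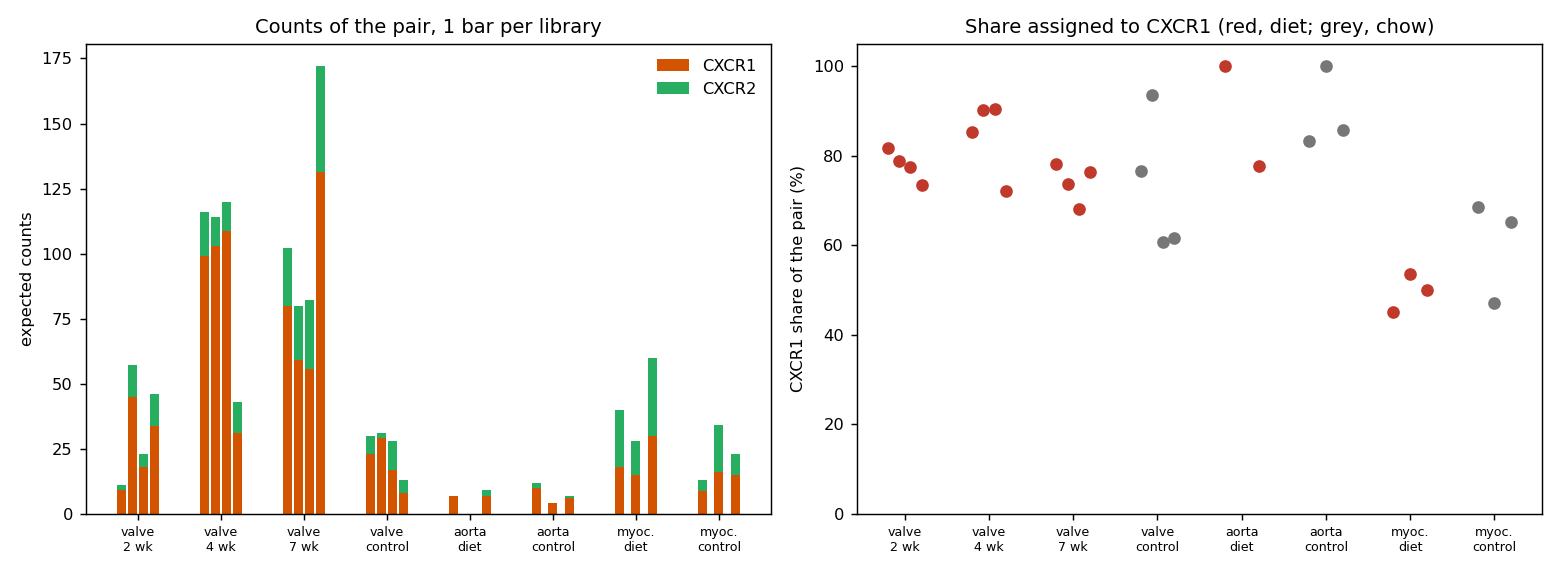
Left, expected counts of CXCR1 and CXCR2 stacked in each library (y axis), which are not corrected for depth. Right, the percent of the pair's counts assigned to CXCR1, by group (x axes). The 7-week valves have sums of 80 to 172 counts, against 13 to 31 in control valves, and CXCR1 holds between 68.0% and 78.1% of them at 7 weeks, against 60.7% to 93.6% in controls.

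In aorta none of the 6 genes exceeded 10 counts in any library and none had enough counts to be tested, while 0.159% of all genes passed between diet and chow. S100A8 had 1 and 4 counts in the diet aortas, against 0, 0 and 2 counts in the chow aortas. S100A9 had 2 and 3 counts on diet, against 5, 1 and 5 counts on chow. S100A12 was at 0 in all 5 aortas, and CSF3R at 0 in 4 of them. CXCR1 stood at 0.448 and 0.446 CPM on diet, against 0.869, 0.248 and 0.486 CPM on chow. The test of whether the diet effect differed, the mean of the 3 valve durations minus aorta, gave 2.37 ± 1.31 for S100A9 (adjusted p of 0.591) and 1.56 ± 0.88 for CXCR1 (adjusted p of 0.598), with 0 members and 0.0474% of all genes past the threshold by edgeR, and 0 members with an unadjusted p under 0.05. DESeq2 called 0 as well.

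In myocardium CXCR1 stood at 1.04, 1.06 and 1.87 CPM on diet, against 0.638, 1.07 and 0.881 CPM on chow, and CXCR2 at 1.27, 0.917 and 1.87 CPM on diet, against 0.294, 1.21 and 0.470 CPM on chow. The groups overlapped in both. The log2 changes were 0.73 ± 0.44 and 1.16 ± 0.61 (adjusted p of 0.767 and 0.675, edgeR), and 0 members passed or had an unadjusted p under 0.05, against 0.0848% of all genes past the adjusted threshold. DESeq2 called 0 members in myocardium too. The calgranulins and CSF3R did not pass the filter there. Chow replicate 3 had the most of each among the 6 libraries, with 52 counts of S100A8, 38 of S100A9, 27 of S100A12 and 9.57 of CSF3R. S100A8 was at 3.06 CPM there and at most at 0.604 CPM in the other chow libraries. Its summed red-cell genes were also the highest of the myocardium, at 6010 CPM, against at most 2001 CPM in the other 5, and their part in those values was not tested.

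Set directly against each other, the diet effect in 7-week valve minus that in myocardium was 4.36 ± 1.43 for S100A8 (adjusted p of 0.155) and 3.85 ± 1.13 for S100A9 (adjusted p of 0.119) on the log2 scale. It was 1.42 ± 0.74 for CXCR1, 0.92 ± 0.80 for CXCR2 and 2.57 ± 1.59 for S100A12. No member passed edgeR's test, 0.639% of all genes did, and S100A8 and S100A9 had an unadjusted p under 0.05. By DESeq2 these 2 passed, with adjusted p of 0.0410 and 0.0270, in a fit that takes no account of the animals shared by both tissues. With the animal as a random block in limma-voom they did not pass, at 2.92 for S100A8 (adjusted p of 0.308) and 3.46 for S100A9 (adjusted p of 0.147). With 1 library left out no member passed by edgeR, and S100A8 ran from 2.69 to 4.96, S100A9 from 2.80 to 4.37, S100A12 from 0.61 to 4.67 and CXCR2 from 0.14 to 1.38. Without chow myocardium replicate 3 S100A8, S100A9 and S100A12 were at the low end, and without chow myocardium replicate 2 CXCR2 was.

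Between the tissues of chow animals, S100A8 was lower in aorta than in myocardium by a log2 difference of -4.56 ± 1.40 (adjusted p of 0.0183, edgeR), in a comparison that moved 52.8% of all genes. The call rests on few libraries: it was lost without aorta replicate 1 or 2 or without myocardium replicate 3, where it stood at -2.87 (adjusted p of 0.108). S100A8 and CXCR1 were the members with enough counts in these fits, and neither passed between control valve and control aorta (3.14 ± 1.43 and 1.21 ± 0.50, against 22.2% of all genes) or between control valve and control myocardium (-1.42 ± 0.94 and 0.24 ± 0.47, against 46.0% of all genes). CXCR1 had an unadjusted p of 0.0360 between valve and aorta, and DESeq2 called 0 members in both.

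Ordered by group mean, 7-week valve was the highest of the 8 groups for S100A8, S100A9, S100A12, CXCR1 and CXCR2, and 4-week valve the second for S100A8, S100A9 and CXCR1. For CXCR2 the second was diet myocardium, at 1.35 ± 0.480 CPM (n = 3), above the 4-week valves at 0.817 ± 0.215 CPM. For CSF3R the 2 highest were myocardium on chow, at 0.326 ± 0.292 CPM, and on diet, at 0.191 ± 0.196 CPM. Each group's range overlapped that of the next in the order in all 6 genes, so no single step in these orders is larger than the spread between libraries.

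The label of neutrophil genes was set against lists of other genes. Of 15 granule proteins of neutrophils, 9 were listed by symbol and 4 had enough counts in valves. MPO, CAMP and MMP8, a peroxidase, an antimicrobial peptide and a collagenase of the granules, had at most 3 counts in any valve library, and MMP8 had 0 in every valve library. Granule proteins are transcribed mainly in the marrow, before neutrophils enter the blood. Of the 4 tested, 2 rose at 7 weeks: MMP9, gelatinase B (3.77 ± 0.92, adjusted p of 0.0241, edgeR), and CHI3L1, a chitinase-like protein (2.38 ± 0.63, adjusted p of 0.0326), both of which macrophages also make. LTF, lactoferrin, averaged 1.37 ± 0.884 CPM at 7 weeks and 0.476 ± 0.108 CPM in controls (log2 1.52 ± 0.58, adjusted p of 0.113). The median of the 4 was 2.31, against -0.01 over all genes tested.

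Of 12 tested surface receptors that neutrophils share with other myeloid cells, 6 rose at 7 weeks and 6 at 4 weeks, with medians of 1.27 and 1.46. At 7 weeks these included ITGB2 and ITGAM, the chains of the integrin Mac-1 (2.97 ± 0.59 and 2.85 ± 0.71), PTAFR, the receptor for platelet-activating factor (2.67 ± 0.51), and C5AR1, the C5a receptor (2.45 ± 0.42), with adjusted p between 0.00633 and 0.0271 by edgeR. FPR1, the formyl peptide receptor, stood at 0.91 ± 0.75 (adjusted p of 0.465).

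Ligands were hardly measurable. Of 8, CXCL8, PPBP and CSF3 were listed by symbol, and CXCL8 alone had enough counts. It rose at 4 weeks (3.25 ± 0.78, adjusted p of 0.0443, edgeR), when it averaged 1.03 ± 0.510 CPM in diet valves and 0.0872 ± 0.135 CPM in control valves. At 7 weeks it stood at 2.03 ± 0.83 (adjusted p of 0.138) with a mean of 0.389 ± 0.105 CPM. CSF3, the gene of G-CSF, had at most 3 counts in any valve.

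On the receiving side of calprotectin, CD14, the co-receptor of TLR4 that macrophages also carry, rose at 7 weeks (2.91 ± 0.47, adjusted p of 0.00633) and at 4 weeks (2.62 ± 0.47, adjusted p of 0.0192), the 1 of 6 tested to pass at either time. TLR4 itself stood at 1.36 ± 0.41 and its partner LY96 at 1.19 ± 0.36 at 7 weeks (adjusted p of 0.0554 and 0.0552, edgeR). Among 7 other S100 genes tested, S100A6 rose at 7 weeks by 1.00 ± 0.28 (adjusted p of 0.0390), and their median was 0.53. Of 7 tested genes of granulopoiesis and G-CSF signalling, 4 rose at 7 weeks: SPI1, the myeloid factor PU.1 (2.48 ± 0.45), SOCS3, a feedback inhibitor of cytokine receptors (2.22 ± 0.31), and the transcription factors CEBPD (1.34 ± 0.34) and CEBPB (0.79 ± 0.17), with adjusted p between 0.00357 and 0.0288.

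**Figure D4:**
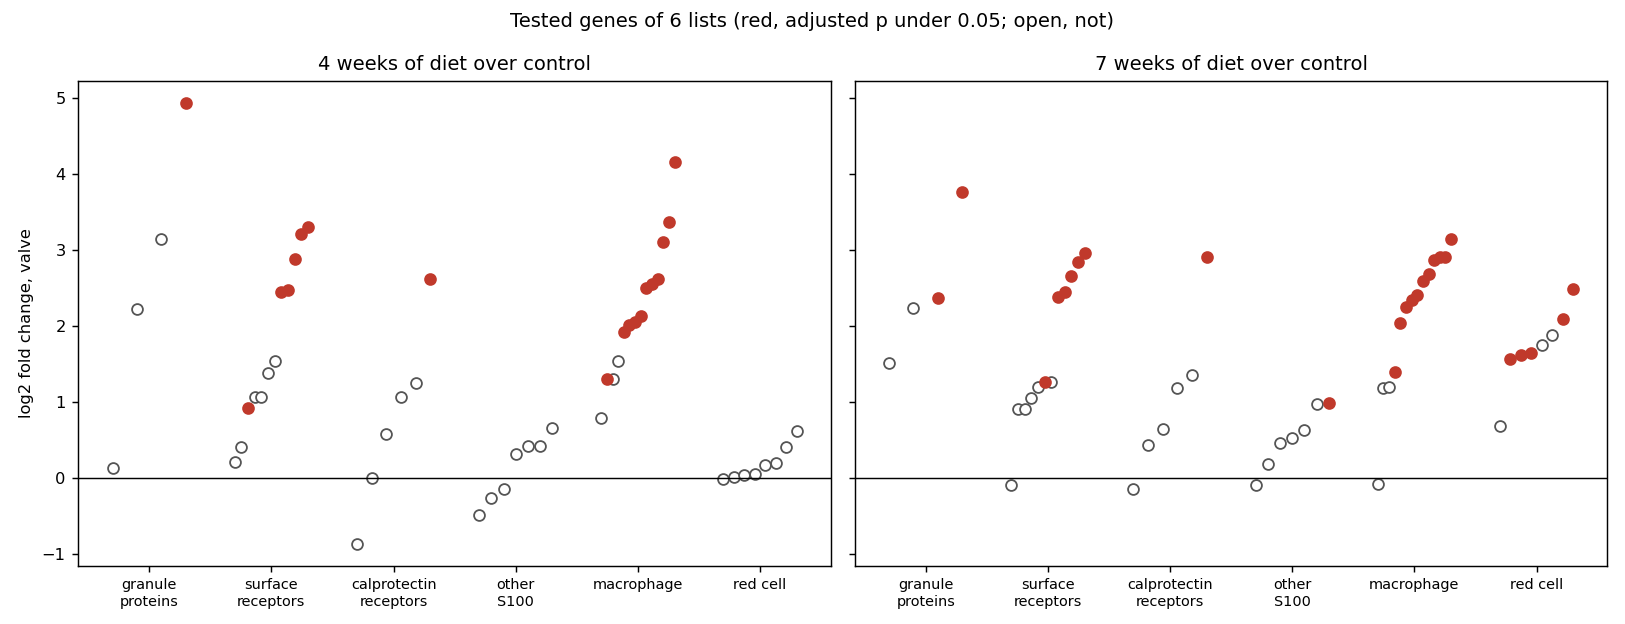
Log2 fold change in valve (y axis) of every tested gene in 6 lists (x axis), after 4 weeks (left) and 7 weeks (right) of diet over controls. Red dots passed an adjusted p of 0.05. Macrophage genes pass at both times, 11 of 14 each, while red-cell genes pass at 7 weeks, 5 of 8, and not at 4 weeks.

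Some genes listed for other cells rose at 7 weeks too, and macrophage genes also at 4 weeks, where no member passed edgeR's test. Of 14 tested monocyte and macrophage genes, 11 rose at 7 weeks and 11 at 4 weeks, with medians of 2.38 and 2.10 and with TYROBP, CD14, ITGAX and MSR1 at 2.87 to 3.15 at 7 weeks. Their summed level was 626 to 860 CPM in the 7-week valves, 256 to 1146 CPM in the 4-week valves and 125 to 246 CPM in the control valves. The 4-week valve with 256 CPM was replicate 4, the lowest of its group in S100A8, S100A9, CXCR1 and CXCR2. The lowest sums of the 7-week and control valves went the other way. They were in 7-week replicate 2 (626 CPM) and control replicate 3 (125 CPM), each the highest of its group in S100A8, S100A9 and CXCR2. At 2 weeks the lowest sum was in replicate 3 (110 CPM), of these genes the lowest of its group in S100A9 only. When the mean of these genes entered the fit as a term, an addition made after seeing the data, 0 of the 4 members passed at 7 weeks and the change of CXCR1 was 0.55 (adjusted p of 0.818), while S100A8 stood at 2.27, S100A9 at 2.31 and CXCR2 at 1.93 (adjusted p of 0.716 each). How many of all genes passed in that fit is not given here, and the macrophage sum itself differed between 7-week and control valves. The loss is therefore not shown to be particular to the members.

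Red-cell genes also rose at 7 weeks, 5 of 8 tested, with SLC4A1, the anion exchanger band 3 (2.49 ± 0.59), ALAS2, of heme synthesis (1.66 ± 0.46), and HBA, alpha globin (1.62 ± 0.45), each with an adjusted p of at most 0.0396 by edgeR. At 4 weeks 0 of 8 passed and 0 had an unadjusted p under 0.05, with a median of 0.12. Their sum was 3969 to 10710 CPM in the 7-week valves and 1293 to 3457 CPM in the control valves. The 7-week valve with the lowest sum, replicate 2, was the one with the most S100A8. In each other valve group the library with the highest sum was the one with the most S100A8. These were 4-week replicate 2 (5433 CPM), 2-week replicate 4 (1587 CPM) and control replicate 3 (3457 CPM). How much of the members' change comes with blood in the cusp was not tested.

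Of the remaining lists, 3 of 8 epithelial genes rose at 7 weeks (EPCAM 4.32 ± 0.88, KRT5 4.28 ± 0.76, KRT19 3.01 ± 0.77), with 0 of 8 at 4 weeks, where 5 had an unadjusted p under 0.05. At 7 weeks 3 of 13 heart muscle genes rose, the atrial genes NPPA, MYL4 and MYL7, and with the mean of the heart muscle genes as a covariate 0 members passed (S100A8 at 2.77, adjusted p of 0.167). The share of all genes that passed with this covariate is not given here. Replicate 2 held the most heart muscle of the 7-week valves, at 40480 CPM summed, against 6869 to 34050 CPM in control valves. CD79A of B cells (1 of 3 lymphocyte genes), MS4A2 of mast cells (1 of 3) and VWF (1 of 7 endothelial genes) rose, while 0 of 1 platelet gene and 0 of 8 fibroblast genes passed (0 and 4 of them with an unadjusted p under 0.05). Of smooth muscle genes 4 of 5 fell and of adipocyte genes 1 of 3 fell, LEP. At 2 weeks 0 of 110 tested entries over all lists passed by edgeR and 30 had an unadjusted p under 0.05, in myocardium 0 of 90 and 24, and in aorta 3 of 86, all heart muscle genes, and 19.

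The genes whose level ran most like a member's over the 16 valve libraries, among 12014 genes with a symbol and a mean of at least 1 CPM, differed between the members. For CXCR1 they were P2RY13, an ADP receptor, NCF4, a subunit of the phagocyte NADPH oxidase, CD163, the haptoglobin-hemoglobin receptor of macrophages, HMOX1, heme oxygenase 1, and PLTP, a phospholipid transfer protein, with Pearson r between 0.943 and 0.956 on log2(CPM + 1). For S100A9 they were MRPL55, HES6, ST3GAL4, IRAK1 and again NCF4 (r between 0.877 and 0.887). For S100A8 they were RIPOR3, BBIP1, CD5L, PTX3 and GPX1 (r between 0.849 and 0.862). None of S100A8, S100A9 and CXCR1 was among the 5 genes most like another of them. The 16 libraries share their diet groups, their depth and their tissue mix, so these are descriptions. S100A12, CXCR2 and CSF3R averaged under 1 CPM, so they were neither ranked nor searched, and could not appear beside another member.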

How the data were processed

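The deposited tables hold expected counts, reads assigned to each gene by RSEM, per valve, aorta and myocardium library. The submitters' processing notes list RSEM (1.3.3) for the counts and STAR (2.7.8a), next to edgeR (3.42.4), Trim Galore (0.6.6) and FastQC (0.11.9). The kit keeps strand, per the labels' protocols. Build, annotation and strand setting: not given in the sources used here. Counts are reads, not molecules, so floors of 3 counts cover counting error only. Each valve library carries its own name, which is taken for the animal, though no label says so, and p-values measure only the spread between libraries.

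Counts were rounded and fitted with edgeR 4.0.16 (R 4.3.3): filterByExpr by group (minimum count 10, minimum total 15), TMM scaling, the quasi-likelihood F test, two-sided, and Benjamini-Hochberg adjustment over all genes tested, threshold 0.05. The 16 valve libraries shared 1 fit. The members' rows were the same in the authors' second valve table, which leaves out 346 genes as myocardial. DESeq2 1.42.0 and limma 3.58.1 served as alternatives, and the code was tested on simulated data. The members and the 17 gene lists were chosen with earlier results of these data known. Of 175 list symbols 139 are in the tables. Of each list up to 4 called genes with the largest change are named, or up to 2 uncalled, and a few others, chosen after their values were seen (FPR1, LTF). Some list genes that the rule would name are not reported here. Of the members 5 of 6 matched RefSeq by symbol.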

Additional observations from a re-analysis of the deposited data

Results flagged for a closer look

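In groups of 4 valves, a library whose gap to the next exceeded Dixon's 95% critical value was looked for in 28 groups of values, and 6 were found. The usual chance rate of about 1 in 20 cannot be set against these 6. In CSF3R a single library above 0 is always flagged, and the sum of CXCR1 and CXCR2 is not independent of its parts. S100A8 (14.7 CPM) and S100A9 (5.44 CPM) both stood apart in 7-week replicate 2, the shallowest valve library. Single counts set CSF3R apart in 1 library each at 2 weeks (0.0664 CPM), at 7 weeks (0.0662 CPM) and in controls (0.0640 CPM). The sum of CXCR1 and CXCR2 was low in control replicate 4 (1.06 CPM), the control titled 2 weeks.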

How the results depend on the processing

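The 4 members called at 7 weeks over controls became 0 with the heart muscle score or with the macrophage score as a covariate, 1 with the RN18S share as a covariate (S100A8 3.14, S100A9 2.52 and CXCR2 1.98 were lost, adjusted p 0.0837, 0.0715 and 0.0522), 2 with only the 2 groups fitted (S100A8 3.46 and CXCR2 2.13 were lost, 0.0524 and 0.0523, edgeR), and 0 to 4 with 1 library left out. Replicate numbers do not pair the valves (correlations of deviations between -0.34 and 0.126), and a replicate block left 1 member, CXCR1 (2.12, adjusted p of 0.0385, edgeR). At 4 weeks over controls, where 0 were called, DESeq2 and the heart muscle score each gave 1, and leaving out a library 0 to 1. For 4 against 2 weeks DESeq2 gave 1 and leaving out a library 0 to 1. For 7 against 2 weeks, with 4 called, both scores gave 0. For 7-week valve minus myocardium DESeq2 gave 2. Without the filter on low counts control valve against control myocardium gave 1, CSF3R, and control aorta against control myocardium gave 3 in place of 1. The summed pair also gave 3 there, as both its genes count, and leaving out a library 0 to 3. Of changes that turned sign none was called. At 2 weeks S100A8 stood at 0.33 and CXCR2 at 0.82 with the heart muscle score, CXCR2 at 0.005 by DESeq2 and 0.171 as the summed pair, and with a library left out S100A8 ran from -1.014 to 0.131, S100A9 from -0.118 to 0.745, CXCR1 from -0.138 to 0.467 and CXCR2 from -0.36 to 0.443. For 4 against 2 weeks CXCR1 stood at -0.142 with the macrophage score and CXCR2 at -0.372 with the heart muscle score. For 7 against 4 weeks S100A9 stood at -0.0 with the heart muscle score and ran from -0.043 to 1.004 with a library left out, and CXCR1 stood at -0.142 with the RN18S share and ran from -0.057 to 0.621. Between control valve and control myocardium S100A8 ran from -1.971 to 0.276 and CXCR1 stood at -0.14 as the summed pair. The causes were not tested, and how many of all genes passed in each of these fits is not given here. Of 99 other counts of members 85 stayed within 1.5 times, and of 327 changes 287 kept their sign and side of the threshold. Most comparisons called 0 members at the outset, and counts that stayed at 0 are among the 85. These totals therefore do not measure how firm the calls were. An animal block in limma-voom changed no count of members for valve minus myocardium or between the control tissues. For the diet effect in valve minus aorta, where 1 animal is shared, it gave no estimate. Low counts limit S100A12 and CSF3R.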
